A study of Homo sapiens with 6 samples.

Results

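The WAVE complex was examined through 10 named subunit genes, NCKAP1L, NCKAP1, CYFIP1, CYFIP2, ABI1, ABI2, ABI3, BRK1, WASF1 and WASF2, in arrays of human K562 cells with or without PU.2. Of these genes, 8 had a probe set carrying their symbol alone, 9 probe sets in all among 33297, since BRK1 had 2. ABI2 and WASF1 had no probe set named here and were not analysed. The complex was chosen by the low NCKAP1L value of the pEF1α-Pu.2 lines in the comparison described below. The differences of all subunits between the groups are therefore given as a description with no test, and they support nothing beyond the values themselves.

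The WAVE complex turns signals of the small GTPase Rac into branched actin networks at the leading edge of a cell. A CYFIP protein and a NCKAP1 protein form a large platform that binds Rac, and an ABI protein, the small subunit BRK1 and a WASF (WAVE) protein bundle together on it. When Rac binds, the tail of the WASF protein is released and switches on the Arp2/3 complex, which starts a new actin filament on the side of an old one. Several positions can be filled by paralogs. NCKAP1L, also known as Hem-1, is the form of blood cells, where it is needed for migration and phagocytosis, whereas NCKAP1 is found in most other tissues.

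The 6 arrays came from 6 monoclonal lines of K562, an erythroleukemic line derived from a chronic myeloid leukemia. The control group was 3 lines carrying empty pEF1α (control lines 1, 2 and 3), and the other group was 3 lines carrying pEF1α-Pu.2. Both plasmids were introduced by electroporation, and all lines were kept under puromycin. The insert is the murine Pu.2 cDNA, which encodes a form of the blood transcription factor PU.1 without its N-terminal activation domain but with its DNA-binding domain. Each line is 1 clone measured on 1 Affymetrix Human Gene 1.0 ST array, so n counts clones, and differences between clones and in RNA handling cannot be told apart. The authors deposited log2 values per probe set, on which a difference of 1 is a 2-fold change. No absolute level can be compared between probe sets of different genes, and whether the probes of a paralog also read its partner was not analysed here.

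Array medians lay between 5.30 and 5.42. The erythroid markers fixed for K562 (GATA1, TAL1, KLF1, LMO2, TFRC, EPOR, HBZ and HBE1) all reached the median level over the arrays. Markers of megakaryocytes, monocytes, lymphocytes and fibroblasts averaged 4.62 to 4.78 per array, and 2 of 20 reached that median. None of these 20 passed the limma test over all genes, and 0 had an unadjusted p under 0.05. Of 8 erythroid markers 1, the embryonic globin gene HBZ, passed and was higher with PU.2. Control line 3 stood somewhat apart in its correlations across all genes, which are not independent replicates. It correlated at r = 0.973 and 0.981 with the other control lines and at 0.979 to 0.982 with the pEF1α-Pu.2 lines. Control lines 1 and 2 correlated at 0.988 with each other and at 0.9743 to 0.9785 with the pEF1α-Pu.2 lines. Differences that rest on control line 3 are given with and without it. SPI1, the human PU.1 gene, was at 6.32, 6.05 and 6.12 in the control lines and at 6.59, 6.49 and 6.41 with PU.2 (log2 difference 0.33, adjusted p = 0.43 from limma). Whether this probe set also reads the murine insert was not analysed, so it gives no check of the labels.

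NCKAP1L, whose low value chose the complex, had the widest difference of the subunits measured. Its log2 values were 7.18, 6.75 and 5.82 in control lines 1, 2 and 3, and 4.43, 4.27 and 4.62 in lines 1, 2 and 3 with PU.2. The groups did not overlap, all control lines lay above their array's median, and all pEF1α-Pu.2 lines lay below it. The group means were 6.59 ± 0.69 and 4.44 ± 0.17 (SD, n = 3 lines each), a log2 difference of -2.15 with a standard error of 0.31, or 4.43-fold lower with PU.2. The control lines spread over 1.36 and the pEF1α-Pu.2 lines over 0.35. Control line 3 held the lowest control value, 1.14 below the mean of control lines 1 and 2 and 1.39 above that of the pEF1α-Pu.2 lines. Without it the log2 difference was -2.53. No detection calls were among the values used here, so it is unknown how far a value near 4.4 lies above the background of this probe set.

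NCKAP1, the general paralog at the same position, showed no such difference. It was at 9.84, 9.97 and 9.76 in the control lines and at 9.51, 9.68 and 9.86 with PU.2. The groups overlapped, with means of 9.86 ± 0.11 and 9.69 ± 0.17 (SD, n = 3 lines each) and a log2 difference of -0.17 (standard error 0.13). NCKAP1 was thus not higher in the lines where NCKAP1L was low. Taken within each line, the log2 value of NCKAP1L minus that of NCKAP1 was -2.66, -3.22 and -3.94 in the control lines and -5.09, -5.41 and -5.24 with PU.2. These values did not overlap either, and their means differed by -1.98, or -2.31 without control line 3.

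CYFIP1 and CYFIP2 are the subunits that touch Rac directly, and they also bind the translation regulator FMR1. CYFIP1, the widely expressed form, was at 6.57, 6.32 and 5.79 in the control lines and at 6.20, 5.91 and 5.83 with PU.2. The groups overlapped because control line 3 lay below every pEF1α-Pu.2 line, and the log2 difference was -0.25 (standard error 0.21). It ran from -0.47 without control line 3 to -0.08 without control line 1. CYFIP2, abundant in lymphoid cells and brain, was at 4.01, 3.94 and 4.07 in the control lines and at 3.61, 4.09 and 3.89 with PU.2. It lay below the array median in all 6 lines, and its log2 difference was -0.14 (standard error 0.14). The within-line value of CYFIP2 minus CYFIP1 ran from -2.56 to -1.72 in the control lines and from -2.58 to -1.82 with PU.2. The groups thus overlapped in this pair, unlike in that of NCKAP1L. CYFIP2 was dim in every line, and whether its probe set could read lower was not tested. The change of the pair was 0.11, or 0.36 without control line 3. It turned to -0.06 without control line 1 and to -0.04 without pEF1α-Pu.2 line 2.

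ABI1 and ABI3 link the WASF protein to the platform, and ABI1 is also a partner of the ABL kinases. ABI1 was at 8.88, 9.06 and 9.27 in the control lines and at 8.81, 9.14 and 8.91 with PU.2, a log2 difference of -0.12 (standard error 0.15). ABI3, a form found in macrophages and microglia, was at 5.40, 4.97 and 4.57 in the control lines and at 5.07, 4.96 and 4.96 with PU.2. All of these lay below the array median, and the control values spanned those of the other group. Its log2 difference was 0.02 (standard error 0.20), and the sign turned when control line 3 (-0.19) or the first pEF1α-Pu.2 line was left out, and also with quantile normalization (-0.02) or median centring (-0.02). The within-line value of ABI3 minus ABI1 had means of -4.09 ± 0.61 and -3.96 ± 0.21 (SD, n = 3 lines each), and its change of 0.14 turned to -0.17 without control line 3.

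The letters GAGGAA, the DNA consensus of PU.1 in the binding assays of the study, were searched on both strands of the promoter windows of RefSeq (GRCh38.p14), 250 bases before to 50 after a start site. Windows were at hand for NCKAP1, CYFIP1, CYFIP2, ABI1 and BRK1 among the measured subunits. None was at hand for NCKAP1L, ABI3 or WASF2, so the search says nothing about these genes. Of their 9 windows 4 held the letters, beside 27.9% of all 35116 windows. The window of NCKAP1 had none, and those of CYFIP2 and BRK1 each held 1 after the start site, as the reverse complement TTCCTC. CYFIP1 held 2 matches in 1 of its 4 windows and ABI1 held 1, all upstream of the start site, and these stretches are shown because PU.2 keeps the DNA-binding part of PU.1. The CYFIP1 stretch lies at chr15:22980385-22980450 and the ABI1 stretch at chr10:26860964-26861023, both on the minus strand, with the matches in capitals.
CYFIP1: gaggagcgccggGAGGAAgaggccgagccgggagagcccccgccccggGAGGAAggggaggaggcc
ABI1: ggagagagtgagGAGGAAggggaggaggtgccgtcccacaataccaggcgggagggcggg
A match of 6 letters is a description of the sequence and not evidence of binding. For both genes the groups overlapped, as given above.

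BRK1, the smallest subunit, and WASF2, the WAVE protein of most tissues including blood, complete the measured set. The first BRK1 probe set was at 9.88, 9.95 and 9.88 in the control lines and at 9.75, 9.81 and 9.70 with PU.2. Those groups did not overlap, but the gap was small, with a log2 difference of -0.15 (standard error 0.11). The second and brighter BRK1 probe set was at 10.15, 10.08 and 10.09 in the control lines and at 9.99, 10.09 and 9.90 with PU.2. Here the groups overlapped, and the log2 difference was -0.12 (standard error 0.11). WASF2 was at 10.18, 10.14 and 9.44 in the control lines and at 9.34, 9.75 and 9.24 with PU.2. Control line 3 lay among the pEF1α-Pu.2 lines here. The log2 difference of -0.48 (standard error 0.22) became -0.72 without control line 3 and -0.34 without control line 1.

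**Figure D1:**
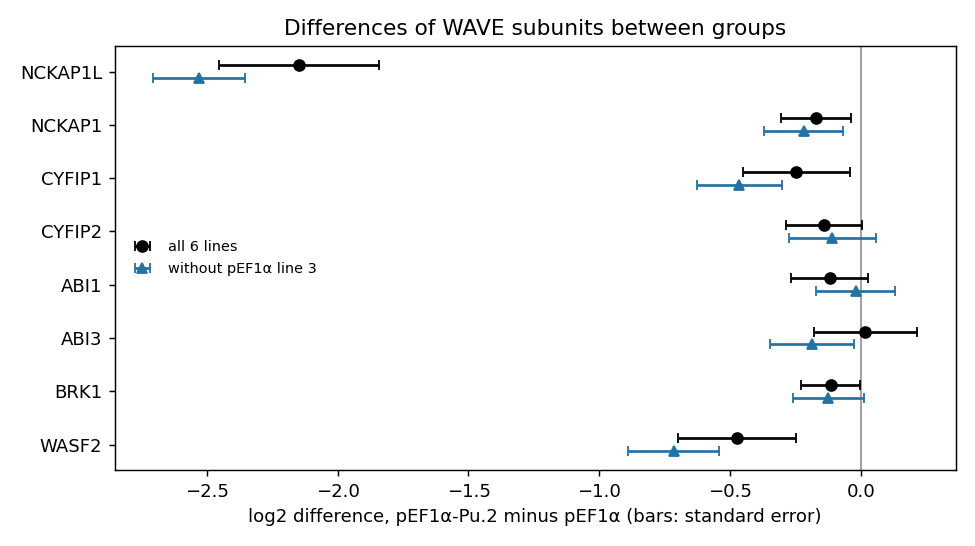
Log2 difference between the group means of pEF1α-Pu.2 and pEF1α (horizontal axis) for the 8 measured subunits, with all lines (black circles) and without control line 3 (blue triangles). Bars are standard errors from limma. NCKAP1L lies at -2.15 and -2.53, WASF2 at -0.48 and -0.72, and ABI3 on either side of 0.

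Across the 8 genes, the log2 difference was below 0 in 7, with a median of -0.16, or -0.14 without NCKAP1L, beside a median of 0.02 over all 18417 genes. Among all genes 45.9% had a difference below 0. With each gene's brightest probe set, 1 of the 8 had groups that did not overlap and was lower with PU.2, beside 6.80% of all genes. As NCKAP1L chose the complex, nothing is read from these counts. With 1 line left out, the difference ran from -0.26 to -0.09 for NCKAP1, from -0.26 to -0.02 for CYFIP2, from -0.21 to -0.02 for ABI1 and from -0.16 to -0.07 for BRK1.

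Control line 3 gave a further pattern inside the control group. Against the mean of control lines 1 and 2 it was lower by more than 0.5 in 4 of the 8 subunits, beside 5.13% of all genes. Without that cut, it lay below each of these lines in 5 of the 8, beside 41.75% of all genes. The difference of control line 3 from that mean was -1.14 for NCKAP1L, which chose the complex, -0.72 for WASF2, -0.66 for CYFIP1 and -0.62 for ABI3. For ABI1 it was 0.30, and for NCKAP1, CYFIP2 and BRK1 it lay between -0.14 and 0.09. For WASF2, control line 3 differed from the mean of the pEF1α-Pu.2 lines by -0.01. These are values of 1 clone with no replicate of its own.

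Next, other blood cell paralogs of the actin machinery were set against their general partners in the same way. Of 8 pairs measured outside the complex, the blood cell form was lower relative to its partner with PU.2 in 7, with no overlap between the groups in 4, those of RAC2, GMFG, DOCK2 and LCP1. No such share was computed for pairs of other genes, and among single genes the groups did not overlap and were lower in 6.80%, as above. The pairs were listed with earlier results of these data known. RAC2, the Rac form of blood cells, minus RAC1 was at -2.80, -2.55 and -2.90 in the control lines and at -3.58, -3.43 and -3.40 with PU.2. RAC1 itself was nearly level, with a log2 difference of -0.02, so the gap of -0.72 came from RAC2.

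GMFG, which removes Arp2/3 branches in blood cells, minus GMFB was at 2.73, 1.88 and 0.64 in the control lines and at -1.54, -0.43 and -1.67 with PU.2. That was the widest change of any pair, at -2.96. LCP1, the actin bundler L-plastin, minus PLS3 changed by -1.33, and DOCK2, a Rac activator of blood cells, minus DOCK1 by -0.58. PLS3, DOCK1 and DOCK2 were dim, with values of 3.22 to 4.54, all below the array medians. HCLS1, the blood cell relative of cortactin, minus CTTN overlapped between the groups, at -0.90, -1.38 and -3.23 in the control lines and from -3.13 to -2.14 with PU.2. Its change was -0.88, and it ran from -1.58 without control line 3 to -0.41 without control line 1. The remaining pairs overlapped as well and changed little, by -0.16 for WIPF1 against WIPF2, -0.14 for ARPC1B against ARPC1A and 0.11 for WAS against WASL.

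**Figure D2:**
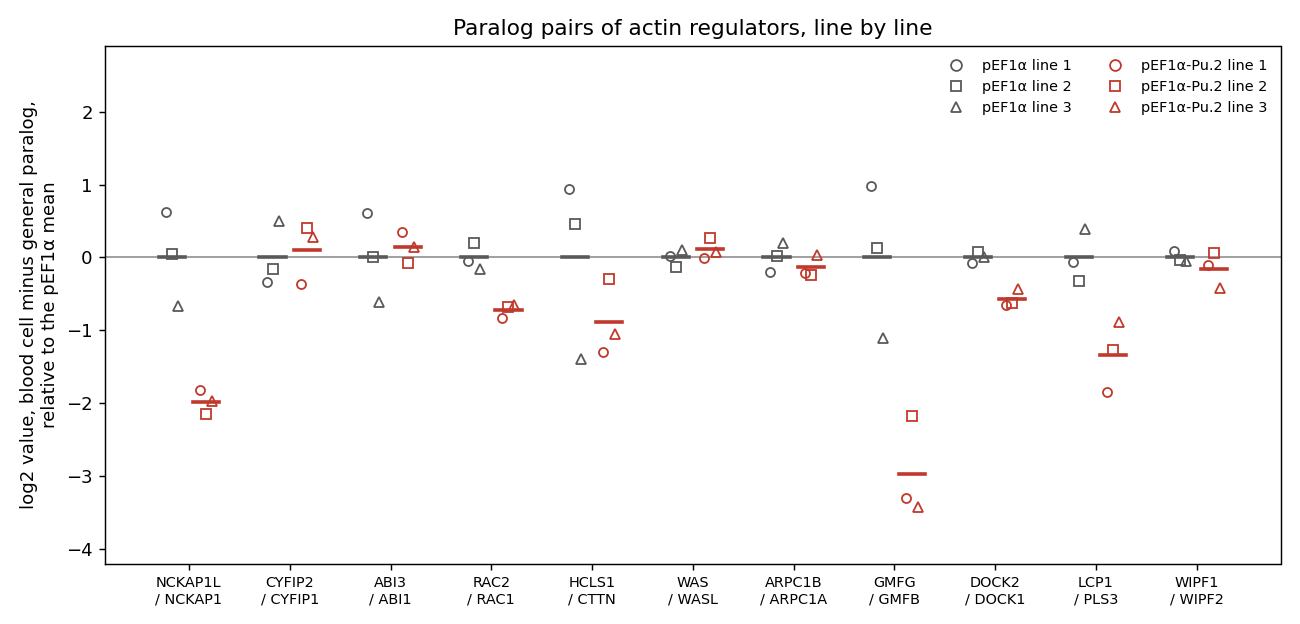
Log2 value of the blood cell paralog minus that of its general partner in each line, relative to the pEF1α mean (vertical axis), for 11 pairs. Each symbol is 1 line and each bar the mean of 3, the control (pEF1α) in gray and pEF1α-Pu.2 in red. The red symbols lie below all gray ones for NCKAP1L, RAC2, GMFG, DOCK2 and LCP1, and the groups overlap in the other pairs.

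The signals that reach the WAVE complex and the machinery it drives were then examined in the limma fit over all genes, outside the 10 subunits. The lists were chosen with earlier results of these data known, so their counts, here and below, are a description and not a test of the pathway. Of 84 genes measured in 6 lists, 1 passed and was lower, GMFG, and none was higher, beside 0.369% of all genes called in either direction. Before adjustment 16 were lower at p under 0.05, beside 5.70% of all genes, and 2 higher, beside 3.83%. The groups did not overlap in 18 that were lower and 5 that were higher, beside 13.8% of all genes in either direction. The log2 difference was below 0 in 56 of the 84, beside 45.9% of all genes, with a median of -0.11. GMFG fell from 10.48, 10.30 and 9.39 in the control lines to 6.84, 7.40 and 6.31 with PU.2, a log2 difference of -3.20 (standard error 0.34, adjusted p = 0.0086 from limma). It did not pass without pEF1α-Pu.2 line 1. Without control line 3, 6 genes passed, namely GMFG, DSTN, LCP1, RAC2, TMSB10 and VAV1. In that fit 432 of all genes passed, beside 68 with all lines. Among the 6, only GMFG also passed with another line left out.

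The Arp2/3 complex, the direct target of WAVE, had 8 measured subunits, all with a log2 difference below 0 and a median of -0.31. None passed limma, and before adjustment 3 were lower and 0 higher at p under 0.05, beside 5.70% and 3.83% of all genes. In 3 the groups did not overlap, all lower, and the share of all genes was 6.80% for this and 45.9% for a difference below 0. ARPC2, which with ARPC4 forms the core of the complex, was at 10.15, 10.64 and 10.21 in the control lines and at 9.87, 9.22 and 9.60 with PU.2 (log2 difference -0.77, adjusted p = 0.22). ARPC5 was at 8.32, 8.30 and 8.33 in the control lines and at 7.85, 7.86 and 7.76 with PU.2, a difference of -0.50 (adjusted p = 0.14 from limma). Averaged over the 8 subunits, the arrays ran from 9.29 to 9.45 in the control lines and from 8.82 to 9.21 with PU.2. The 7 measured regulators of Arp2/3 had a median of -0.02, and GMFG was the only one called.

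Upstream, none of the 22 Rac GTPases and exchange factors passed limma. Before adjustment 4 were lower and 0 higher at p under 0.05, beside 5.70% and 3.83% of all genes. ARHGEF6, an exchange factor for Rac, had means of 5.76 ± 0.92 in the control lines and 3.73 ± 0.24 with PU.2 (SD, n = 3 lines each). The groups did not overlap, and the log2 difference of -2.03 had an adjusted p = 0.11 from limma. RAC2 was at 7.87, 8.01 and 7.61 in the control lines and at 7.01, 7.18 and 7.06 with PU.2, a difference of -0.75 (standard error 0.14, adjusted p = 0.089). Without control line 3 it was -0.86 and passed, with an adjusted p = 0.014 from limma. With any other line left out RAC2 did not pass.

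The WASP family and its partners, which also activate Arp2/3, had a median log2 difference of 0.03 over 12 genes. None passed limma, and before adjustment 1 was higher and 0 lower at p under 0.05, beside 3.83% and 5.70% of all genes. WASF3, the remaining WAVE paralog, was dim in all lines, at 5.24, 5.12 and 5.11 in the control lines and at 4.83, 5.11 and 4.98 with PU.2. WASHC1, of the related WASH complex of endosomes, had the widest difference, 0.60 (adjusted p = 0.30), followed by WASHC3 at -0.40 (adjusted p = 0.72). WASHC1 has near-identical copies in the genome that may share its signal.

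Proteins that bind the WAVE complex gave a median of -0.04 over 20 genes and no call. Before adjustment 2 were lower and 1 higher at p under 0.05, beside 5.70% and 3.83% of all genes. NCK2, an adaptor that brings receptors to WAVE, had a log2 difference of -0.52 (adjusted p = 0.25 from limma), and ENAH, which speeds filament growth, one of 0.46 (adjusted p = 0.41). Actin and its filament binding proteins gave no call among 15 genes, with a median of -0.12. Before adjustment 6 were lower and 0 higher at p under 0.05, beside the same shares of all genes. LCP1 was at 9.90, 9.74 and 10.28 in the control lines and at 8.02, 8.70 and 8.83 with PU.2. Its log2 difference of -1.46 narrowly missed the threshold (standard error 0.23, adjusted p = 0.053 from limma), and without control line 3 it was -1.30 and passed (adjusted p = 0.023). TMSB10, which binds free actin, had means of 11.19 ± 0.56 and 10.19 ± 0.48 (SD, n = 3 lines each), which overlapped (adjusted p = 0.33 from limma). Without control line 3 its log2 difference was -1.30 and passed (adjusted p = 0.035 from limma). Neither LCP1 nor TMSB10 passed with any other line left out.

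**Figure D3:**
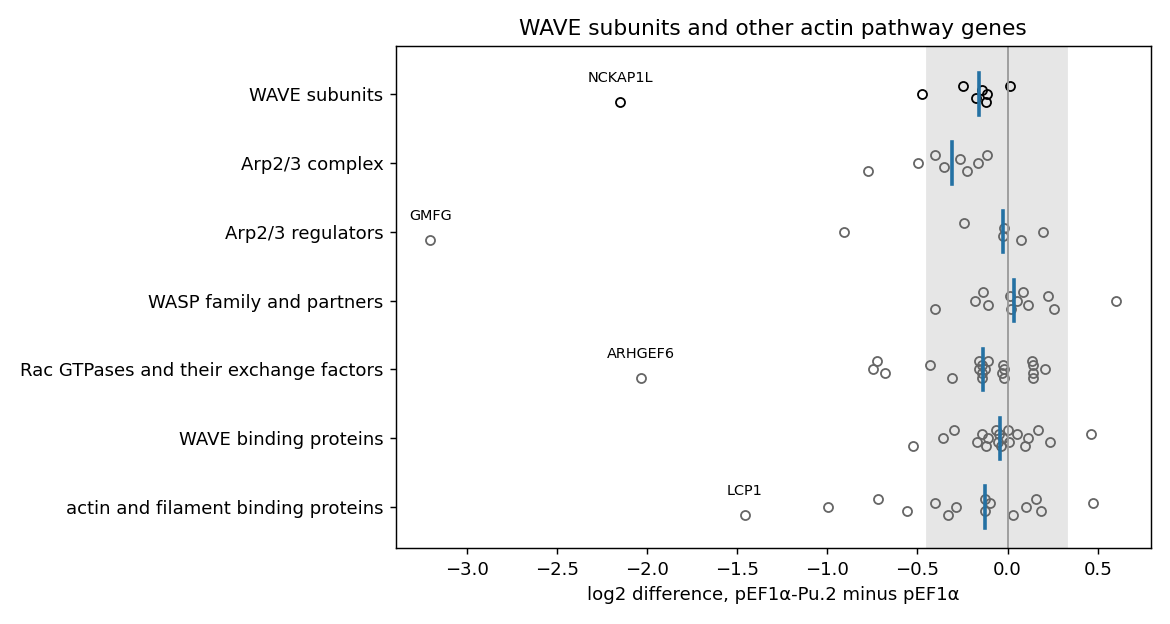
Log2 difference between pEF1α-Pu.2 and pEF1α (horizontal axis) for the 8 measured WAVE subunits and for 84 other genes in 6 lists of the actin pathway. Circles are genes, blue bars are medians, and the gray band holds the central part of all genes, between percentiles 5 (-0.45) and 95 (0.33). NCKAP1L, GMFG, ARHGEF6 and LCP1 lie beyond a difference of 1, and every Arp2/3 subunit lies left of 0.

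Finally, the genes with the pattern most like that of NCKAP1L were sought by the root mean square distance between log2 values over the 6 lines, each gene centred on its own mean. STXBP5, a syntaxin binding protein of vesicle release, was nearest at 0.29, followed by LYZ (lysozyme) at 0.29, VIM (vimentin) at 0.32, the glucose transporter SLC2A3 at 0.345 and the lysosomal protease CTSH at 0.348. The median gene lay at 1.16. STXBP5 was at 9.74, 9.94 and 9.16 in the control lines and at 7.77, 7.52 and 8.06 with PU.2. Since these genes were picked for their likeness to NCKAP1L over the same lines, that likeness is fixed by the choice. The exact order of lines was not shared, as STXBP5 was highest in control line 2 and NCKAP1L in control line 1.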

How the data were processed

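Total RNA of 6 monoclonal K562 lines was measured on Affymetrix Human Gene 1.0 ST arrays. The authors summarised each array with Expression Console, and the values they deposited are log2 per probe set. Sources used here do not state its background correction, normalization or version. Genes were named through the platform annotation, updated by gene ID against the gene table of GRCh38.p14 (19429 of 19460 probe sets with 1 symbol matched, 0 symbols updated). Probe sets with several symbols (1754) or none (12083) were left out. For 769 genes with more than 1 probe set the brightest was used. The fit of both groups covered 18417 genes and used lmFit and eBayes of limma 3.58.1 (R 4.3.3, no trend), and p-values were adjusted by Benjamini-Hochberg at a threshold of 0.05. Dim probe sets were kept, and the number of arrays limits the precision. With 3 lines a group, exact permutation reaches no p below 0.1.

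The members, gene lists, paralog pairs and the rule for named genes were chosen with earlier results of these data known. The rule took all members, all pairs, SPI1, called genes of each list or else its 2 widest differences, and the 5 genes nearest to NCKAP1L. DSTN, VAV1, HBZ and WASF3 were named after their values were seen. No p is given for members. The fit was tested on simulated data with the spreads of the 18417 genes, 3 lines against 3. Recovered were 11 of 50 genes changed 1.5-fold, 33 of 50 at 2-fold, 49 of 50 at 4-fold and 50 of 50 at 8-fold. Of 150 calls 7 were false. Noise was drawn independently for each gene and line, so deviations of a whole line, as in control line 3, were not simulated. The recovery and false calls in these clones may therefore differ. The 14 alternatives were quantile normalization, median centring, probe sets averaged per gene, each probe set alone, a filter at the median level, eBayes with trend and robust fit, array weights, the replicate number as a block, and each line left out.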

Additional observations from a re-analysis of the deposited data

How the results depend on the processing

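The median difference of the WAVE subunits was -0.16 and ran from -0.21 to -0.10 over 14 alternatives. NCKAP1L ran from -2.53 to -1.85, NCKAP1 from -0.27 to -0.09 and WASF2 from -0.72 to -0.34, with no change of sign. ABI3 changed sign in 4 alternatives, the CYFIP2 pair in 2 and the ABI3 pair in 1, and no other subunit or pair changed sign in any alternative. The number of genes called over all genes depended on the lines used, from 20 to 432 with 1 line left out (11 to 273 lower), beside 68 (41 lower) with all lines. The highest came without control line 3. With array weights it was 1349 (835 lower), and the cause was not tested. In the actin lists 1 gene, GMFG, was called with all lines, 0 to 6 with 1 line left out, 14 with array weights, and 2 with the filter at the median level or the trend and robust fit, where LCP1 was added. With the replicate number as a block, 3 were called (GMFG, LCP1 and ARHGEF6), and 64 genes in all. The labels give no meaning to these numbers. Deviations of same-numbered lines from their group means correlated at -0.15, -0.15 and -0.04 across genes. With 3 lines a group, such deviations cannot show whether same-numbered lines were handled together, and this was not tested. No line correlated best with its own number. How far the dim probe sets of CYFIP2 and ABI3 lie above background was not tested.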
